A study of Caenorhabditis elegans with 2 samples.

Results

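The genes ztf-11, egl-44, egl-46, ham-1, pig-1, ces-1 and ces-2 regulate neuroblast division, neuron formation and the survival of neuroblast daughters in Caenorhabditis elegans. Binding of the NeuroD-family protein CND-1 was described at these 7 of 19973 nuclear protein-coding genes. The genes were chosen by their known roles and by the CND-1 peaks already seen at some of them, so their peaks are described here without a test. Every peak summit from 3000 bp upstream of the annotated gene start to the gene end was assigned to the gene, in each of 4 peak lists.

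The data are ChIP-seq peak lists from whole embryos of mixed stage and mixed sex, obtained by bleaching and labelled as 3 hours old. There is 1 group with 2 biological replicates. Both came from strain OP349 (unc-119(ed3) III; wgIs349), whose inserted transgene makes CND-1 with a C-terminal GFP-FLAG tag, and chromatin was precipitated with an antibody against GFP. The labels do not name the cells in which the tagged protein is made. The control experiment that the labels name was left out. In whole embryos, strong binding in few cells and weak binding in many cells cannot be told apart.

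Each replicate list and the list from pooled reads held 30000 regions that include background. The thresholded list, made by a procedure that compares replicates, held 1964 peaks. Without the mitochondrial genome these came to 29978, 29974, 29976 and 1940 regions. Of the 1940, 1854 had a summit within 100 bp in both full replicate lists, so a thresholded peak need not be found in each replicate. The 8 thresholded summits described here had the same rank in the thresholded and the pooled list. Each region carries the authors' signal value, which has no stated scale, so ranks within a list are given beside it, with 1 as the strongest. The regions called strongest in a replicate are its first 1940. Sequencing depth is unknown from these lists.

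As a member of the basic helix-loop-helix (bHLH) class, CND-1 belongs to proteins that bind E-boxes, the sites CANNTG, usually as dimers with an E protein. NeuroD proteins act in neuronal specification and differentiation. Neuroblasts of the worm embryo often divide asymmetrically, so that 1 daughter becomes a neuron or a neuronal precursor and the other dies. The chosen genes act at different points of this sequence. EGL-44, EGL-46 and ZTF-11 are transcription factors of neuronal fate, HAM-1 and PIG-1 act in the asymmetric division itself, and CES-1 and CES-2 act in the decision of a daughter cell to live or die.

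Of the 7 genes, 6 had a thresholded CND-1 summit in their window and pig-1 had none. By the same rule 2206 protein-coding genes, or 11%, had one, but the choice of genes used these peaks, so nothing is read from the comparison. The 6 genes carried 8 summits in all, of which egl-46 held 3 and the others 1 each. At least 3 thresholded summits were found in the windows of 0.330% of protein-coding genes. Of the 8 summits, 6 lay upstream of the gene and 2 in introns. For all 8 the nearest protein-coding transcript start was one of the gene's own, and the closest tRNA, snoRNA or snRNA gene was 20949 bp away or farther.

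Among the strongest regions of each replicate alone, 6 of the genes had a summit in replicate 1, where 2196 protein-coding genes (11%) had one, and 5 in replicate 2, where 2192 (11%) did. The gene that differed was ham-1. Of the 8 thresholded summits, 6 were matched within 100 bp by a strongest region of both replicates, and 7 by some region of both full lists. Over all nuclear thresholded peaks these shares were 67.3% and 95.6%. Since the thresholded peaks come from a list made from both replicates, the match is partly built in.

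**Figure D1:**
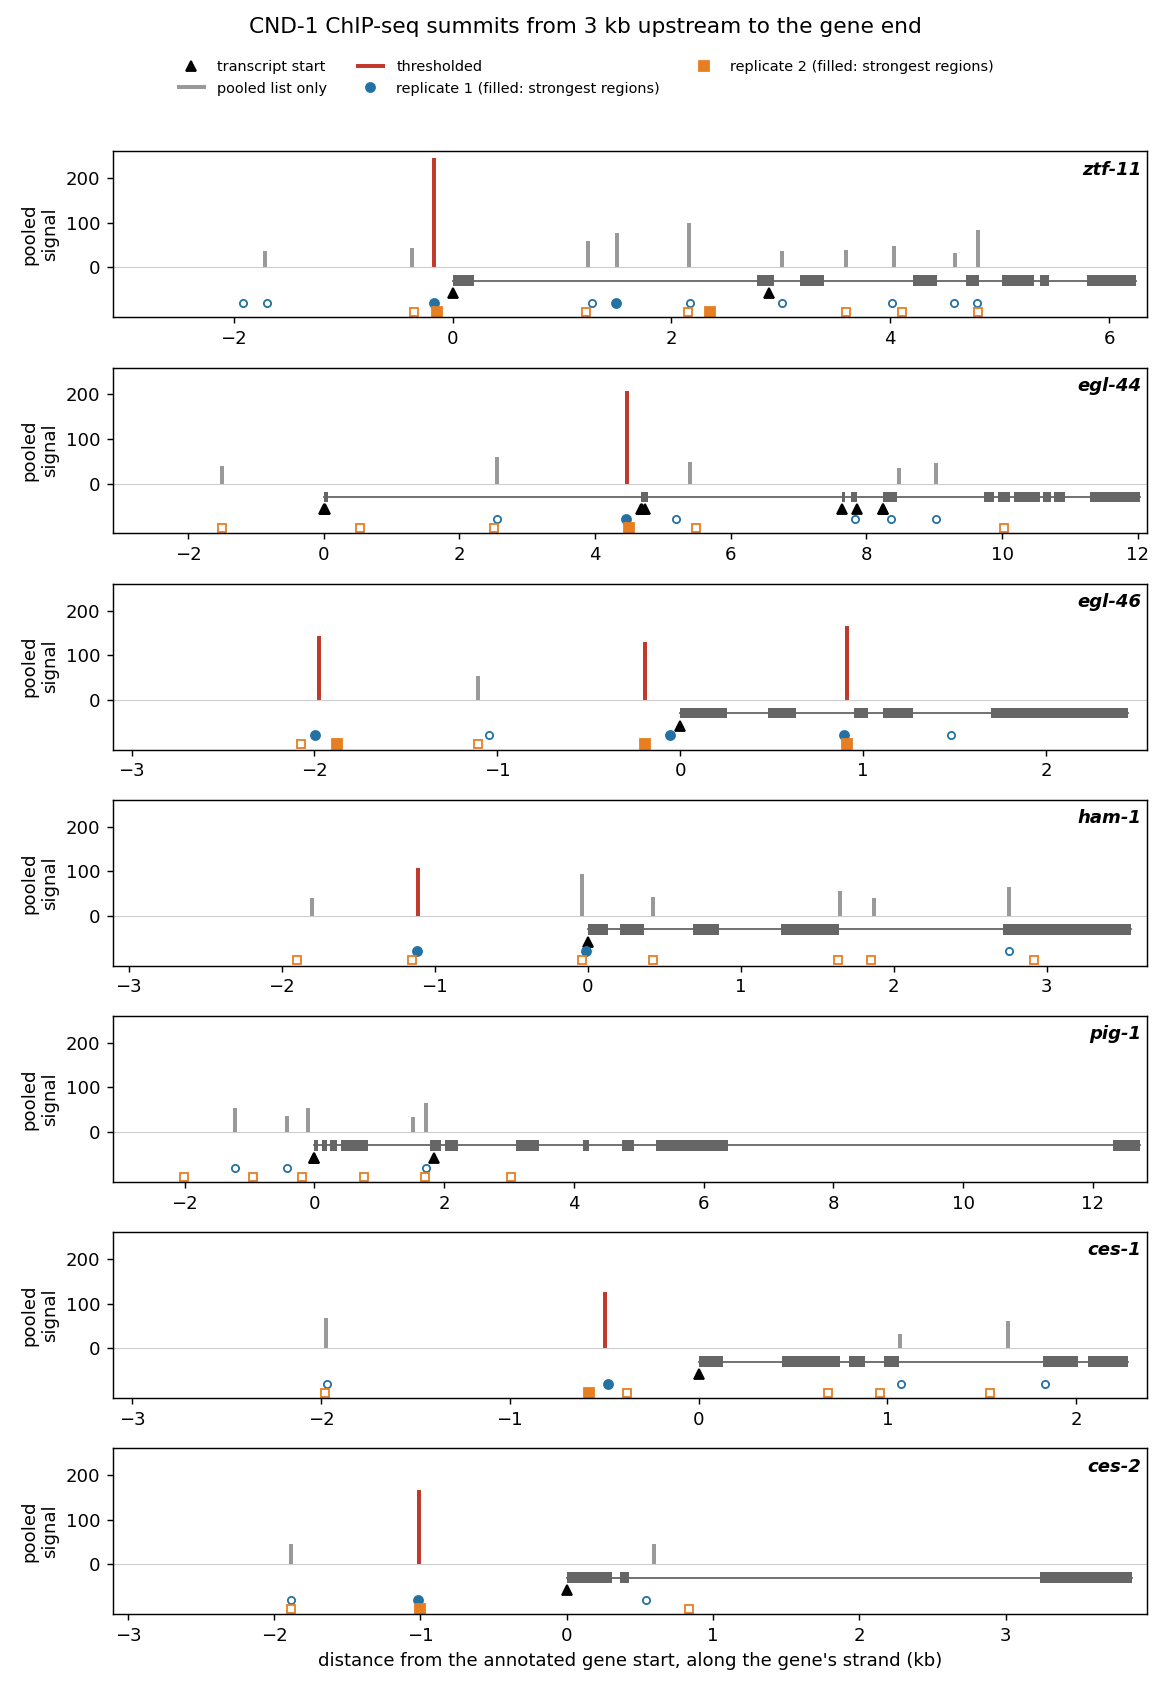
Summits along the 7 genes, each panel running from 3 kb upstream of the annotated gene start to the gene end, with distance in kb along the gene's strand. Bars give the pooled signal (red: thresholded, grey: pooled list only), grey boxes are exons, triangles transcript starts, and circles and squares the summits of replicates 1 and 2, filled for the strongest regions. There is 1 red bar at ztf-11, egl-44, ham-1, ces-1 and ces-2 and 3 at egl-46, the red bar of ham-1 (108) is close to a grey one (94.5), and pig-1 has grey bars of at most 64.4.

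The TEAD-family gene egl-44 had its thresholded summit deep inside the gene, beside an internal start. EGL-44 and EGL-46 act together in several neuronal lineages, where they shape the fate of mechanosensory neurons and cell cycle exit of neuronal precursors. The gene (WBGene00001208, II:5928802-5940830, plus strand) has 13 annotated transcripts with 9 different starts. The summit lay 4464 bp downstream of the first start, in intron 1 of the 4 longest transcripts, which is 7569 bp long. It also lay 220 bp upstream of the nearest internal start, from which shorter transcripts begin. Its peak (II:5933068-5933463) had a pooled signal of 208 and rank 515.

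In replicate 1 the egl-44 site had a signal of 93.2 and rank 623, and in replicate 2 a signal of 125 and rank 399. The summits of the 2 replicates lay 5 and 31 bp from the pooled one. No other region of the egl-44 window came near this level, since the next strongest of the 6 pooled regions had a signal of 59.8 and rank 7279. The pooled region closest to the first start lay 1495 bp upstream of it, with rank 19843, and replicate 2 alone had a region 541 bp inside the gene, with rank 14792. The 100 bp around the summit are shown because they carry a single E-box, read as CATCTG on the gene's strand and CAGATG on the other, 23.5 bp downstream of the summit (capitals, ce11 II:5933216-5933315, plus strand).
egl-44 intron 1: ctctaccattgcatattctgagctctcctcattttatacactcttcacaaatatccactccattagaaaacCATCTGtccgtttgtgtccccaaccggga

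The zinc finger gene egl-46, whose product belongs to the INSM family and works with EGL-44, carried 3 thresholded summits spread over 2.9 kb. The gene (WBGene00001210, V:6679123-6681573, minus strand) has 1 annotated transcript. From upstream to downstream the summits lay 1975 bp upstream of the start, 195 bp upstream of it and 912 bp inside the gene, in intron 2, which is 320 bp long. Their peaks were V:6683350-6683745, V:6681570-6681965 and V:6680463-6680858. Their pooled signals were 143, 130.1 and 165, with ranks 1062, 1273 and 807, so the intronic site ranked best. The 3 values lay on both sides of the median of the nuclear thresholded peaks, 150, whose signals ran from 103 to 1351.

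The intronic site of egl-46 had ranks 1138 and 702 in replicates 1 and 2 (signals 69.3 and 94.8). The distal upstream site had ranks 1013 and 829 (signals 74.0 and 87.5). Its replicate summits lay 21 and 100 bp from the pooled one, the second just at the 100 bp limit of the match. At the site 195 bp upstream, replicate 2 had a summit at the same base, with signal 84.3 and rank 891. The nearest summit of replicate 1 lay 140 bp away, nearer to the gene start, with signal 55.3 and rank 1793. Each replicate thus had 3 of its strongest regions in this window, but the proximal one failed the 100 bp match in replicate 1. The distal and the proximal summits also lay inside the annotated non-coding RNA genes K11G9.7 and K11G9.12. Of all nuclear thresholded summits 14.6% lay in such an annotated ncRNA.

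The sequences at the 3 egl-46 summits are shown because they differ in their E-boxes (capitals, gene strand, which is the minus strand of ce11). The distal site has CAGGTG, the reverse complement of CACCTG, centred 0.5 bp from the pooled summit. The replicate summits there lay farther from it, as given above. The proximal site has CAGCTG 30.5 bp downstream of the pooled summit. The 100 bp window at the nearest replicate 1 summit, 140 bp away, has no E-box. The intronic site, the strongest of the 3, has no E-box. The windows are V:6683498-6683597, V:6681718-6681817 and V:6680611-6680710.
egl-46 distal: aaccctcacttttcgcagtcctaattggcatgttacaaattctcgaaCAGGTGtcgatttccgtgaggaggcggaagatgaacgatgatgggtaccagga
egl-46 proximal: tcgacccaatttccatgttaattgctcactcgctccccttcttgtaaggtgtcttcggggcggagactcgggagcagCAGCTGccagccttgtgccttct
egl-46 intron 2: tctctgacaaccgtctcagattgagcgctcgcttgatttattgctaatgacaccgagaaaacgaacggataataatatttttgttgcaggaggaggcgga

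The gene ham-1 had the weakest thresholded summit of the group. HAM-1 is a winged-helix protein that several neuroblasts need to divide asymmetrically, and it was named for defects in the migration of the HSN motor neurons. The gene (WBGene00001820, IV:12542183-12545737, plus strand) has 1 annotated transcript. The summit lay 1109 bp upstream of the start, and its peak (IV:12540876-12541271) had a pooled signal of 108 and rank 1812 of 1940. In replicate 1 the signal was 59.9 with rank 1521, and in replicate 2 it was 54.2 with rank 2148, which put it outside the strongest regions there.

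A further ham-1 region lay 35 bp upstream of the start, with a pooled signal of 94.5 and rank 2323, outside the thresholded list. The replicates differed more at this region, with rank 1607 in replicate 1 (signal 58.5) and rank 5268 in replicate 2 (signal 38.1). Replicate 2 had its best ham-1 region elsewhere, 1638 bp inside the gene, with rank 1990 (signal 56.1), where replicate 1 had no summit within 1.1 kb. In all, ham-1 held 7 pooled regions, 3 of replicate 1 and 7 of replicate 2. The 2 upstream sites shared the same E-box. It was read as CAGATG 0.5 bp from the distal summit and as its reverse complement CATCTG 10.5 bp downstream of the proximal one. Both are printed with the E-box in capitals (ce11 plus strand, IV:12541024-12541123 and IV:12542098-12542197).
ham-1 distal: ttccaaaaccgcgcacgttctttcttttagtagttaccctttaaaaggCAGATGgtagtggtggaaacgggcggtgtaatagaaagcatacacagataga
ham-1 proximal: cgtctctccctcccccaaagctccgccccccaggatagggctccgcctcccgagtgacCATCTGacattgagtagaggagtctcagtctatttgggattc

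The gene pig-1 had no thresholded summit. PIG-1 is the worm's MELK-type kinase and makes the daughters of several neuroblast divisions unequal in size and fate. The gene (WBGene00021012, IV:506731-519457, minus strand) has 8 annotated transcripts with 3 different starts, and its window of 15.7 kb was the longest of the group. Its 5 pooled regions had signals from 33.0 to 64.4. The strongest, with rank 5972, lay 1723 bp inside the gene, in an intron and 125 bp upstream of an internal start. It had rank 13585 in replicate 1 and 6585 in replicate 2. No E-box was found in its 100 bp window. The best pig-1 region of each replicate was a different one, 415 bp upstream in replicate 1 (rank 4899) and 191 bp upstream in replicate 2 (rank 4800). The region 1225 bp upstream of pig-1 lay inside the neighbouring gene asm-3. Such ranks were common, since the median best pooled rank over the 13993 protein-coding genes with a region in their window was 8622.

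The strongest summit of the group lay in front of ztf-11. ZTF-11 is the worm's MYT1-family zinc finger protein and promotes neurogenesis by repressing non-neuronal genes. The gene (WBGene00009939, I:9904303-9910545, minus strand) has 2 annotated transcripts with separate starts. The summit lay 173 bp upstream of the first start, and its peak (I:9910520-9910915) had a pooled signal of 244 and rank 358. In replicate 1 the signal was 136 with rank 278, and in replicate 2 it was 107 with rank 547. The replicate summits lay 2 and 33 bp from the pooled summit. Its 100 bp window held CACCTG 6.5 bp and CAGATG 27.5 bp downstream of the summit.

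The ztf-11 window was also the richest in weaker regions, with 11 pooled regions in 9.24 kb, or 1.19 per kb. The median over all protein-coding genes was 0.248 per kb. Of the 10 weaker regions the strongest lay 2158 bp inside the gene, in an intron and 732 bp upstream of the second start. It had a pooled signal of 99.0 and rank 2095, with ranks 2889 and 8477 at the matched summits of replicates 1 and 2. Replicate 2 had a stronger summit in the same intron, 2353 bp inside the gene, with signal 61.6 and rank 1638. A region 4804 bp inside the gene, in a coding exon, had rank 2981, and an intronic one at 1504 bp had rank 3605. At the intronic region of 1504 bp replicate 1 had rank 1564, while the nearest summit of replicate 2 lay 284 bp away. Weaker regions were thus found along the gene in both replicates, but the replicates did not rank them alike.

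The Snail-family gene ces-1 and the bZIP gene ces-2 each had a single upstream summit. In the lineage of the NSM neurons active CES-1 can keep alive the sister cell that normally dies, and CES-2 acts upstream of ces-1 to keep it off. The gene ces-2 (WBGene00000469, I:14961497-14965361, plus strand) had its summit 1011 bp upstream of the start (peak I:14960288-14960683), with a pooled signal of 167 and rank 789. The ranks were 981 and 753 in replicates 1 and 2 (signals 74.9 and 91.5), with summits 5 and 10 bp from the pooled one. Its only other pooled regions had ranks 14435 and 14627. The 100 bp window of ces-2 had no E-box and the highest GC content of the group, 62%, against a median of 50% over all nuclear thresholded summits.

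The gene ces-1 (WBGene00000468, I:8633897-8636169, plus strand) had its summit 495 bp upstream of the start (peak I:8633204-8633599), with a pooled signal of 126 and rank 1333. The ranks were 1566 and 1389 in replicates 1 and 2 (signals 59.0 and 66.9), with summits 13 and 86 bp away. The summit lay in the annotated non-coding RNA gene F43G9.19. The 100 bp window at the pooled summit held 3 E-boxes, more than any other of the group. They were CACCTG 23.5 bp upstream of the summit, CAGATG 14.5 bp upstream and a further CAGATG 44.5 bp downstream. A window of the same size at the replicate 1 summit also held 3 E-boxes, but that at the replicate 2 summit, 86 bp away, held none. A weaker region 1972 bp upstream of ces-1 (pooled rank 5102) lay closer to a start of the sperm gene fer-1.

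**Figure D2:**
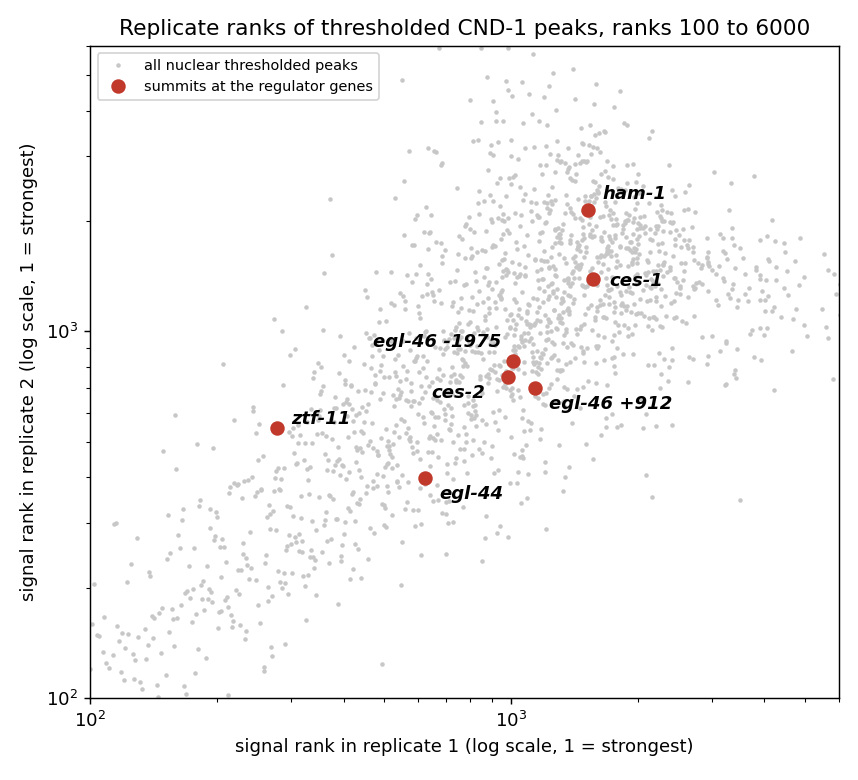
Signal rank in replicate 1 (x axis) and replicate 2 (y axis), both log scales from 100 to 6000, of nuclear thresholded peaks with a summit within 100 bp in both replicates (grey) and of 7 of the 8 summits at the regulator genes (red). The site 195 bp upstream of egl-46 is missing because its replicate 1 summit lay 140 bp away. The red points run from ztf-11 (278 and 547) to ham-1 (1521 and 2148), within the cloud of other peaks.

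In the order of their strongest thresholded signal among the 2206 protein-coding genes that had one, ztf-11 was 456th, egl-44 674th, ces-2 1017th, egl-46 1043rd, ces-1 1627th and ham-1 2080th. The median of these genes was a signal of 161. The neighbours just above and below were spe-9 and srlf-24 for ztf-11, F59C12.4 and sec-3 for egl-44, ptp-3 and eif-2gamma for ces-2, and clc-20 and dnj-14 for egl-46. They were F14B6.3 and spr-3 for ces-1, and rps-17 and sdha-1 for ham-1. Each neighbour differed in signal by under 1. The order of ces-2 and egl-46 rests on signals of 167 and 165, while this egl-46 site, the intronic one, ranked ahead of ces-2 in replicate 2 (702 against 753) and behind it in replicate 1 (1138 against 981).

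The lowest nuclear signal of the thresholded list was 103. Nearest to it on the inside was ham-1 at 108, followed at some distance by ces-1 at 126 and the proximal egl-46 site at 130.1. Just outside lay the intronic region of ztf-11 at 99.0 and the proximal region of ham-1 at 94.5. The windows of the 7 genes held 40 pooled regions, and the 32 outside the thresholded list had a median signal of 47.2. The median over all nuclear pooled regions, thresholded ones included, was 45.3. Of the 32, 10 were matched within 100 bp in both replicates. This share was not computed for the other pooled regions, so nothing is read from it.

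E-boxes were present at 6 of the 8 thresholded summits, and at 4 of them the E-box was CAGATG. Any E-box stood in the 100 bp window of 49.4% of all 1940 nuclear thresholded peaks (95% Clopper-Pearson interval 47.1 to 51.6), and CAGATG in 17.4% (15.8 to 19.2). The motifs were searched on both strands as CANNTG, in which the overlap of neighbouring sites was allowed. CAGATG was found at ztf-11, egl-44, ham-1 and ces-1. CACCTG was found at ztf-11, ces-1 and the distal site of egl-46, 3 of 8 windows, against 5.31% of all peaks (4.35 to 6.40), and CAGCTG at the proximal site of egl-46 (6.86% of all peaks, 5.77 to 8.07). In windows of the same size centred 300 bp to the left and to the right of the 8 summits, 3 and 3 held an E-box, where all peaks gave 30.1% and 30.8%. With 8 windows from 6 genes no difference from the other peaks was tested, and the intervals cover the counting of peaks only.

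**Figure D3:**
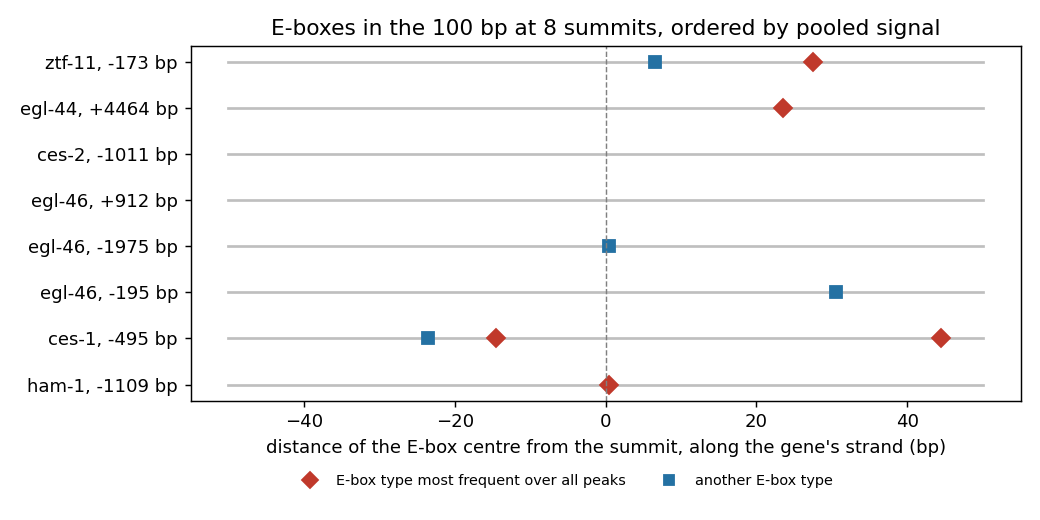
E-boxes (squares and diamonds) in the 100 bp around the 8 thresholded summits, with the distance of the E-box centre from the summit in bp on the x axis and the summits ordered from the highest pooled signal at the top. Diamonds mark the E-box type found most often over all peaks. They occur at ztf-11, egl-44, ces-1 and ham-1, while the ces-2 site and the intronic egl-46 site have no mark.

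CAGATG sites were also counted over the whole windows of these genes, which span 64.1 kb. The 50 bp on each side of the summits cover a small part of this length, so most sites lie outside wherever they fall. Whether the sites lie nearer to summits than other sequence does was not tested. The 7 windows together hold 51 CAGATG sites, of which 5 lay within 50 bp of a thresholded summit and 10 within 50 bp of any pooled summit. The ztf-11 window has 15 of them, with 1 at the thresholded summit, and the ces-1 window has 6, with 2. The windows of pig-1 and ces-2 hold 7 and 2 CAGATG sites, none within 50 bp of a pooled summit. The egl-46 window holds 5, also with none there. Over all nuclear thresholded peaks 17.4% of the 100 bp windows held CAGATG, so a summit without it is common.

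Genes that work with these regulators were read in the same way, in 5 lists of 42 genes, all of which matched the annotation. The lists were chosen with earlier results of these data known, so nothing is read from their shares. In all, 12 of the 42 had a thresholded summit (28.6%), beside the 11% of all protein-coding genes. In the list of MuvB and DREAM genes, which encode a repressor complex that includes corepressor partners of ZTF-11, 4 of 8 had one. They were lin-54 (signal 275, rank 282), lin-35, the retinoblastoma homologue (273, rank 292), lin-9 with 2 summits (210.4 and 131, ranks 501 and 1265) and lin-53 (179, rank 698). The lin-54 summit lay 23 bp from the start of the ribosomal protein gene rpl-12 and 370 bp from that of lin-54. The lin-53 summit lay nearer to nra-2.

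In the list on asymmetric division 5 of 13 genes had a thresholded summit. They were the WAVE actin regulator wve-1 (signal 197, rank 578), the small GTPase gene arf-6 (135, rank 1175), mop-25.1 for a MO25-type kinase partner (133, rank 1226), the Arf GTPase-activating protein gene cnt-2 with 2 summits (132 and 112, ranks 1246 and 1664), and toe-2 (121, rank 1440). The sites of wve-1, arf-6 and mop-25.1 lay nearer to starts of R06C1.4, Y116A8C.9 and hrg-1. The kinase gene par-4 and strd-1, which act with PIG-1, had best pooled ranks of 9281 and 5754 and no thresholded summit.

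Among partners and targets of EGL-44 and EGL-46, cki-1, a CDK inhibitor gene, had a summit 1553 bp upstream (signal 184, rank 672), and zag-1, a ZEB-type homeobox gene, had one 3343 bp inside the gene (104, rank 1924), which made 2 of 6. The touch neuron gene mec-3 had no region in the pooled list. The list of proneural bHLH genes held 9 genes and included the E protein gene hlh-2. Only hlh-2 had a thresholded summit (175, rank 727), and no proneural gene of the list did. This share of 11.1% is near the 11% of all protein-coding genes. Nearest outside the thresholded list was hlh-14 with a best pooled rank of 2043, and best ranks of 9948 and 1955 in replicates 1 and 2. It was followed by ngn-1 (2367) and lin-32 (3393). The rest of the list ranked 18858 or weaker, or had no pooled region. None of the 6 cell death genes had a thresholded summit, but 6 genes are too few to read this against the 11% of all protein-coding genes. Their best pooled ranks were 2445 for dnj-11, 2548 for ced-9 and 3917 for ced-3, with egl-1, the death trigger gene, at 13949. Of the 14 thresholded summits in these lists, 9 lay nearest to a start of the listed gene, 9 held an E-box and 2 held CAGATG. The differences between these lists and the 7 regulator genes were not tested.

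**Figure D4:**
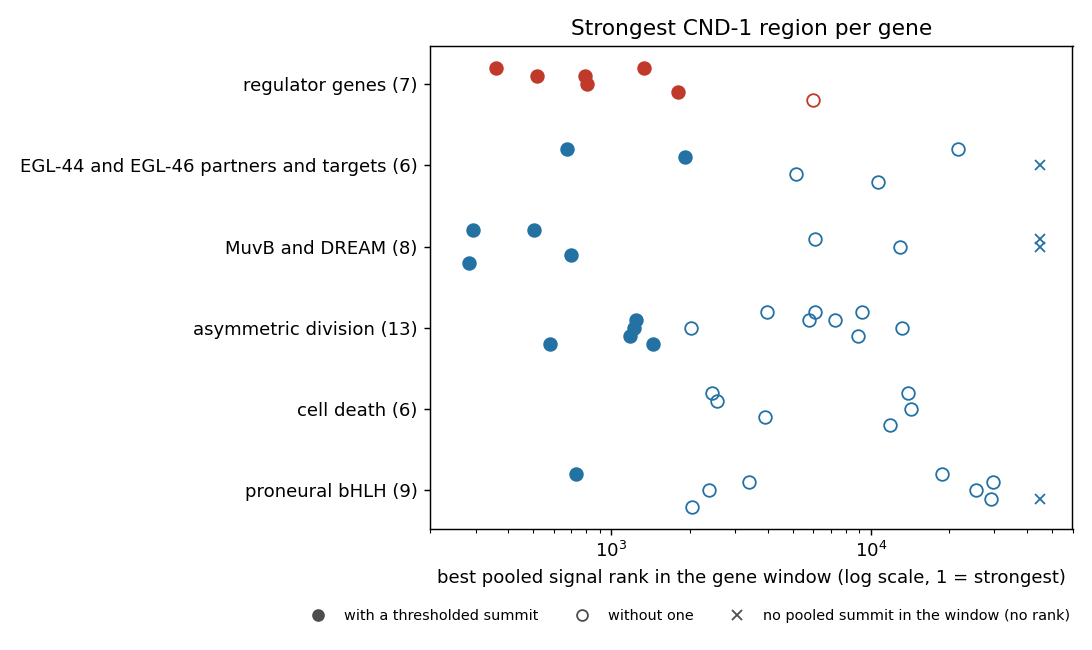
Best pooled signal rank in the window of each gene (x axis, log scale, 1 = strongest) for the 7 regulator genes (red) and 5 lists of genes that work with them (blue), with the number of genes in brackets. Filled circles have a thresholded summit, open circles none, and crosses mark genes with no pooled region, which have no rank. The regulator genes lie between 358 and 1812 except pig-1 at 5972, and the cell death genes start at 2445.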

How the data were processed

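ChIP-seq peaks of CND-1 were analysed in 2 biological replicates of 1 group. Per the labels, chromatin was sonicated to 200 to 800 bp, the assembly was ce11, and the lists were made for, or thresholded by, the irreproducible discovery rate procedure. No source used here names the peak caller or the aligner. The deposited signal values (never negative, scale not stated) ranked regions within each nuclear list. The deposited −log10 q-value stood at its maximum of 3.46 for 7 of the 8 thresholded summits at the genes described and was not used for ranking.

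Genes and transcripts came from Ensembl release 115 and sequences from the RefSeq genome, both of assembly WBcel235, which is ce11. Summits were start plus offset, given 1-based. A window of 100 bp around each summit was scored for the presence of each E-box and 6-mer. Gene assignment was tested on simulated data with 200 planted summits. Python 3.11.15, pandas 2.3.3, NumPy 2.4.6 and SciPy 1.17.1 were used. The genes and lists were chosen with earlier results of these data known, so no test was made on them. All 7 genes are named, as are all listed genes with a thresholded summit, the neighbours in signal, and the genes whose starts lay nearest. Other listed genes and regions (dnj-11, ced-9, ced-3, egl-1, mec-3, par-4, strd-1, hlh-14, ngn-1 and lin-32, and the weaker regions) were picked after their values were seen. Alternatives changed the peak list, the replicates, the gene window, the assignment, the sequence window and the match distance.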

Additional observations from a re-analysis of the deposited data

How the results depend on the processing

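The main counts were 6 genes with a thresholded summit, 8 summits, 6 summits with an E-box and 6 found in both replicates. With only the thresholded peaks above the median signal, which drops ham-1, ces-1 and 2 egl-46 sites, 4 summits and 4 genes were left, and 2 of these summits held an E-box. With 1000 bp upstream in place of 3000 bp, 5 summits in 4 genes were left, without ham-1 and ces-2. The flanks of the 8 summits held an E-box in 3 (left) and 3 (right) windows. Taking the strongest pooled regions gave the same 6 genes, 8 summits and 6 summits with an E-box. These were the same peaks, so this alternative is no separate check. Matching within 50 bp in place of 100 bp left 4 of the 8 summits found in both replicates. All other alternatives gave values within 1.5 times the main ones. Leaving out replicate 2 or replicate 1 gave 6 and 5 genes, 10 and 8 summits, 7 and 5 summits with an E-box, and 7 and 7 summits found. No paired analysis was possible because there is 1 group. Peak lists hold no read depth, so an absent summit, as at pig-1, does not show absent binding.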

Other observations

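The 6-mer found in most of the 8 thresholded windows was not an E-box but GGCGGA, on either strand, in 5 of 8. It was picked from 2080 strand-collapsed 6-mers after the sequences were seen, so it has no test. Over all 1940 nuclear thresholded peaks 6.96% of windows held it, against 2.47% and 2.68% in windows centred 300 bp to the left and right, and 4.34% of the pooled regions outside the thresholded list. It was present at ztf-11 (31.5 bp upstream of the summit), at ces-2 (22.5 bp downstream) and at all 3 egl-46 sites, 22.5, 11.5 and 47.5 bp downstream of the distal, proximal and intronic summits, and it can be read in lower case in the 3 egl-46 sequences of the report. The 2 windows without an E-box, at ces-2 and in intron 2 of egl-46, both held it. The egl-44, ham-1 and ces-1 summits did not. Of the 32 weaker regions at the 7 genes 2 held it, and the proximal region of ham-1, 35 bp upstream of the start, had it in 2 places as the reverse complement TCCGCC.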
